A study of Mus musculus with 16 samples.

Results

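The comparison set gastrocnemius of 4 SOD1G93A mice against gastrocnemius of 4 non-transgenic (NTg) mice, 8 of the 16 arrays of the series, chosen by the muscle and genotype in their titles. Gastrocnemius is a large calf muscle of the hindlimb, made mostly of fast fibres. All mice were female C57BL/6 animals aged 7 weeks, an age the submitters call presymptomatic. The SOD1G93A mice carried human superoxide dismutase 1 with the G93A substitution, and the NTg mice carried no transgene. The sources used here give neither the promoter nor the copy number of the transgene, and the labels describe each array as a biological replicate. The other 8 arrays measured triceps of the same design and are used only for values set beside those of gastrocnemius. The replicates formed 2 sets, numbers 1 and 2 and numbers 3 and 4, whose arrays differed in both genotypes, so the set was a block in the fit. The labels do not say what the sets are.

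Mice with this transgene are a standard model of amyotrophic lateral sclerosis (ALS), in which motor neurons degenerate and muscle fibres lose their nerve supply. Fast fibres lose their nerve endings before slow fibres in such mice, and changes in fuel use by muscle have been studied as an early part of the disease. Denervated muscle is known to switch on acetylcholine receptor subunits, myogenic regulators and ubiquitin ligases of protein breakdown. The question here was whether genes of the muscle already differ before symptoms.

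Values are log2 signals, 1 per array for each probe set, a group of short probes that reads 1 transcript. Array medians lay between 7.10 and 7.17. Of 7729 probe sets, 4637 had a mean over all arrays above 6.75 and were tested, and they stand for 3034 genes when the brightest probe set of each gene is taken. Differences are SOD1G93A minus NTg on the log2 scale, with the standard error (SE) of the fit. The muscle identity was plain, with Ckm (muscle creatine kinase), Acta1 (skeletal actin) and Myh4 (the fastest myosin heavy chain) at 13.97 or above on every gastrocnemius array. In bulk tissue a smaller share of cells of a type and less RNA per cell cannot be told apart. The p-values measure the spread between these 8 arrays.

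No probe set passed the test. limma called 0 of 4637 (0%) at an adjusted p under 0.05, with a smallest adjusted p of 0.449. At an unadjusted p under 0.05, 135 probe sets (2.91%) had higher values in SOD1G93A muscle and 145 (3.13%) lower values. Taken by gene these were 103 higher (3.39%) and 92 lower (3.03%). The 4 SOD1G93A arrays all lay above the 4 NTg arrays for 64 probe sets (1.38%) and all below them for 61 (1.32%), or 47 genes (1.55%) and 41 genes (1.35%). The median SE was 0.16, so the 95% interval of a typical probe set reached 1.26-fold either way. The median difference over all genes was -0.01, and 48.1% of genes lay above 0. That width is unadjusted and varies between probe sets, so it is not the limit of what the test could call. Larger differences also went uncalled with this number of arrays, among them that of Fasn, 1.72 on the log2 scale.

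The 2 genes with the largest positive differences belong to the making of fatty acids and of the reducing power it needs. Fasn encodes fatty acid synthase, which builds palmitate from malonyl-CoA. Its log2 signal was 8.36, 7.69, 7.48 and 6.58 in SOD1G93A replicates 1 to 4 and 5.19, 6.91, 5.80 and 5.35 in NTg replicates 1 to 4. All SOD1G93A arrays but replicate 4 lay above every NTg array, and replicate 4 lay above all but NTg replicate 2. The difference was 1.72 (SE 0.35), a 3.29-fold higher signal with a 95% interval of 0.95 to 2.49 on the log2 scale, and limma's adjusted p was 0.449. The difference was 1.98 in replicates 1 and 2 and 1.46 in replicates 3 and 4. All NTg values of Fasn but replicate 2 lay under 6.75, the level that the mean over all 16 arrays, triceps included, had to exceed (7.14 for Fasn).

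Tkt encodes transketolase of the pentose phosphate pathway, the pathway that supplies NADPH for fatty acid synthesis. Its signal was 8.48, 7.97, 7.05 and 7.10 in SOD1G93A and 6.89, 7.12, 6.61 and 5.85 in NTg. The groups overlapped only through NTg replicate 2, and within each set the SOD1G93A arrays were the higher ones. The difference was 1.03 (SE 0.21, limma's adjusted p = 0.449), with 1.22 in replicates 1 and 2 and 0.84 in replicates 3 and 4.

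Scd1 encodes stearoyl-CoA desaturase, which makes monounsaturated fatty acids. It was at 10.83, 10.69, 9.30 and 9.58 in SOD1G93A and at 9.31, 9.88, 9.22 and 8.01 in NTg. The first 2 SOD1G93A arrays were above all others, while the second 2 lay among the NTg values. The difference was 0.99 (SE 0.22, limma's adjusted p = 0.494). Without NTg replicate 3 it was 1.27 and passed the test, with limma's adjusted p = 0.0147, the only probe set called when any single array was left out. A second, dimmer probe set of Scd1 was not tested.

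Thrsp encodes a nuclear protein of lipogenic tissues that is induced by thyroid hormone and carbohydrate. Its signal was 8.81, 8.46, 6.83 and 7.68 in SOD1G93A against 7.59, 7.59, 7.09 and 7.01 in NTg. Replicate 3 of SOD1G93A was the lowest of the 8 arrays, so the groups overlapped. The difference of 0.63 (SE 0.22, limma's adjusted p = 0.771) came to 1.05 in replicates 1 and 2 and 0.21 in replicates 3 and 4. A second tested probe set gave 0.39.

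The stretches of DNA upstream of Fasn and Thrsp are shown because these 2 members of the lipid synthesis list had higher values in SOD1G93A muscle and an entry in the promoter table. They were searched for inverted CCAAT boxes, the element bound by NF-Y, a partner of sterol-responsive factors. Each run is the 250 bases before the start of the gene, from RefSeq on assembly GRCm38.p6, with matches to ATTGG or its reverse complement CCAAT in capitals.
Fasn, chr11:120824548-120824797, minus strand: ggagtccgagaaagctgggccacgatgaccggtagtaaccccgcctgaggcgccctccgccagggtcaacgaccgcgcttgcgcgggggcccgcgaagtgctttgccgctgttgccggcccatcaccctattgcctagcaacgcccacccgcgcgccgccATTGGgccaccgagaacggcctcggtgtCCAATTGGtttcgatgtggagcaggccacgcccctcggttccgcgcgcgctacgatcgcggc
Thrsp, chr7:97417551-97417800, minus strand: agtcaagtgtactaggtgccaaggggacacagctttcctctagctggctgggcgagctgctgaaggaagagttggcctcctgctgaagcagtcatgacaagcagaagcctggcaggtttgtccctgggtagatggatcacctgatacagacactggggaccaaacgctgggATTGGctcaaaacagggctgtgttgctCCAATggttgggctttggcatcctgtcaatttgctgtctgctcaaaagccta
In Fasn the letters lay 90 to 86 and 59 to 55 bases before the start, and the CCAAT 62 to 58 bases before it overlaps the second. In Thrsp they lay 79 to 75 and 52 to 48 bases before the start. Either letter order was found in 33.8% of 32851 promoters of the same length, so the match is common. Gadd45g, which had lower values in SOD1G93A muscle, holds one too, 78 to 74 bases before its start. The sterol regulatory element TCACNCCAC, searched on both strands and found in 1.05% of promoters, was not in either window.

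Most of the rest of the lipid synthesis list lay closer to 0. Of 31 members, 20 were in the table and 13 were tested. Of these 10 lay above 0 and 3 below, and none passed. The median of 0.08 compares with -0.01 over all genes, and 0.17 without NTg replicate 1. Me1, malic enzyme, another source of NADPH, was at 0.23, Gpam, the first enzyme of triglyceride assembly, at 0.17, and Srebf1, the sterol- and insulin-responsive activator of the pathway, at 0.08. Acss2, which makes acetyl-CoA from acetate, was at -0.29. The large differences were those of Fasn, Scd1 and Thrsp, and of Tkt outside the list.

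Insig2, which holds the sterol-regulated activators in the endoplasmic reticulum, had lower values on 1 of its 3 tested probe sets. That probe set read 6.51, 6.11, 6.67 and 6.51 in SOD1G93A and 7.17, 7.06, 7.36 and 6.97 in NTg. All its SOD1G93A values lay under 6.75, the level that the mean over all arrays had to exceed. The groups did not overlap, and the difference was -0.69 (SE 0.20, limma's adjusted p = 0.62). The brighter probe set of Insig2 was at -0.23 and the third at 0.00, so the gene's probe sets disagreed. Vldlr, a receptor that brings triglyceride-rich lipoproteins to muscle, was at -0.45 (SE 0.13) and -0.43 on its 2 tested probe sets.

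**Figure D1:**
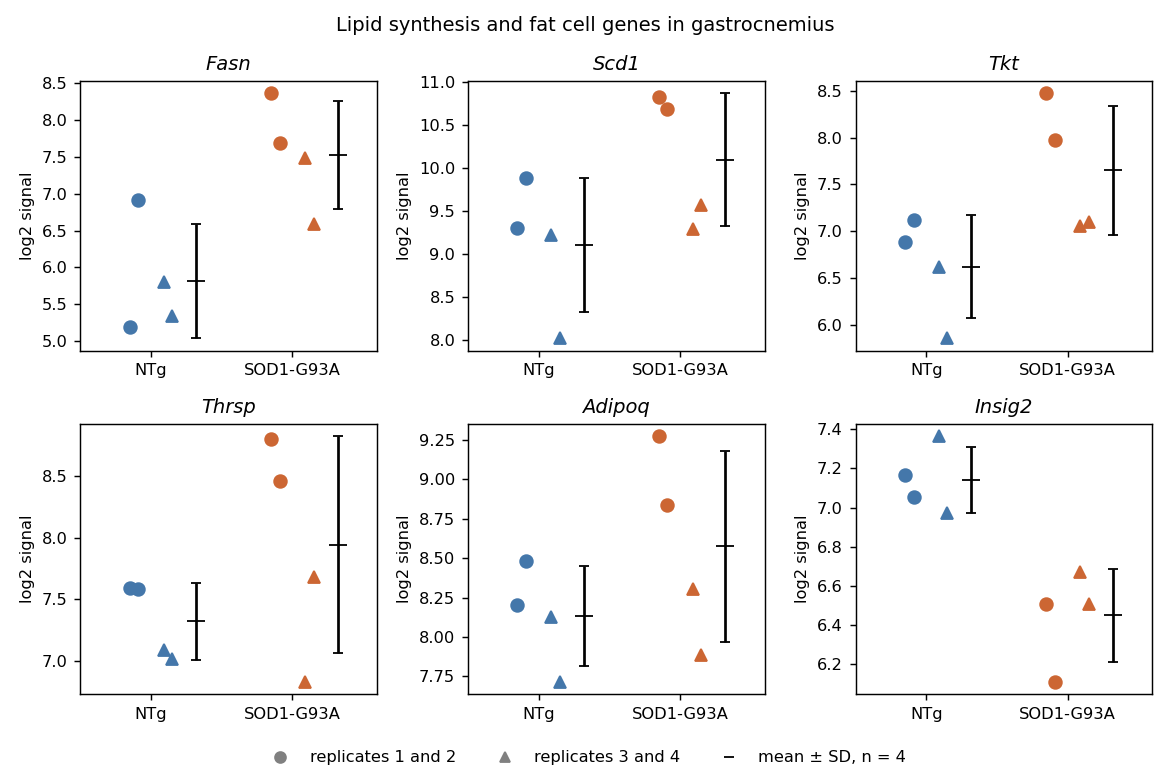
Log2 signal (vertical axes) of 6 genes on each gastrocnemius array, NTg in blue and SOD1G93A in orange, circles for replicates 1 and 2 and triangles for replicates 3 and 4, with the mean ± SD of 4 arrays beside each group. Fasn, Scd1, Tkt, Thrsp and Adipoq were highest in SOD1G93A replicates 1 and 2, and the probe set of Insig2 with a difference of -0.69 had no overlap between groups.

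Fat cells are a possible part of a dissected muscle, and their markers are given beside the lipid genes. Adipoq, the hormone adiponectin made by fat cells, was at 9.27, 8.84, 8.31 and 7.88 in SOD1G93A and 8.20, 8.48, 8.12 and 7.72 in NTg. As with Fasn and Scd1, SOD1G93A replicates 1 and 2 were the highest arrays. The difference was 0.44 (SE 0.17, limma's adjusted p = 0.789), with 0.71 in the first set and 0.17 in the second. Fabp4, a fatty acid carrier of fat cells and endothelium, was at 0.12 (SE 0.14), and at -0.04 without SOD1G93A replicate 1.

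Of 22 adipocyte markers 10 were in the table and 9 tested, 6 above 0 and 3 below, with a median of 0.09. The median log2 level of the tested members ranged from 9.89 to 10.28 over the SOD1G93A arrays and from 9.79 to 10.23 over the NTg arrays. No array lacked signal for Adipoq or Fabp4. Car3, carbonic anhydrase 3, which muscle fibres also make, was at 0.26 (SE 0.08). What part fat cells have in the lipid gene values was not tested.

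The brightest genes of the muscle nearly all leaned one way. Ckm was at 14.29, 14.31, 14.66 and 14.71 in SOD1G93A and 13.97, 14.05, 14.48 and 14.44 in NTg. Within each set both SOD1G93A arrays were above both NTg arrays, and across sets the groups overlapped, because replicates 3 and 4 were brighter in both genotypes. The difference was 0.26 (SE 0.05, limma's adjusted p = 0.449), and 0.42 separated the sets.

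Other genes of the fast contractile machinery had differences of the same size. Pvalb, the calcium buffer parvalbumin, was at 0.24 (SE 0.05), Tpm1, alpha-tropomyosin, at 0.24 (SE 0.05), and Atp2a1, the fast calcium pump, at 0.22 (SE 0.06). The fast troponin subunits Tnni2, Tnnt3 and Tnnc2 were at 0.24, 0.23 and 0.23. Acta1 was at 0.20 and the glycolytic enzyme Aldoa at 0.25. Myh4 was an exception at 0.04 (SE 0.08). Limma's adjusted p was 0.449 or above for each. Of 18 tested members of the fast fibre list 16 lay above 0, where 48.1% of all genes did, and 11 had an unadjusted p under 0.05 with higher values, where 3.39% of all genes did. Of the 2 members below 0, the lowest at -0.20, 1 had an unadjusted p under 0.05 (3.03% of all genes were lower at that p). The groups did not overlap for 1 member with lower values and 0 with higher values (1.35% and 1.55% of all genes). The list's median was 0.17, and 0.0074 after quantile normalization.

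The size of these differences depended on how the arrays were scaled. Above a mean of 13, 33 probe sets had a median difference of 0.19, with 32 above 0 and 0 whose groups did not overlap. After quantile normalization, which gives every array the same distribution, their median was 0.01 with 19 above 0. Ckm was then at 0.08, while Acta1 turned to -0.01 and Myh4 to -0.15. The same 33 probe sets were higher in replicates 3 and 4 than in 1 and 2 by a median of 0.35. The 99th percentile of an array ranged from 12.45 to 12.59 in SOD1G93A and from 12.42 to 12.56 in NTg, a difference of 0.01 (exact two-sided permutation within sets, p = 0.444, smallest possible 0.0556).

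**Figure D2:**
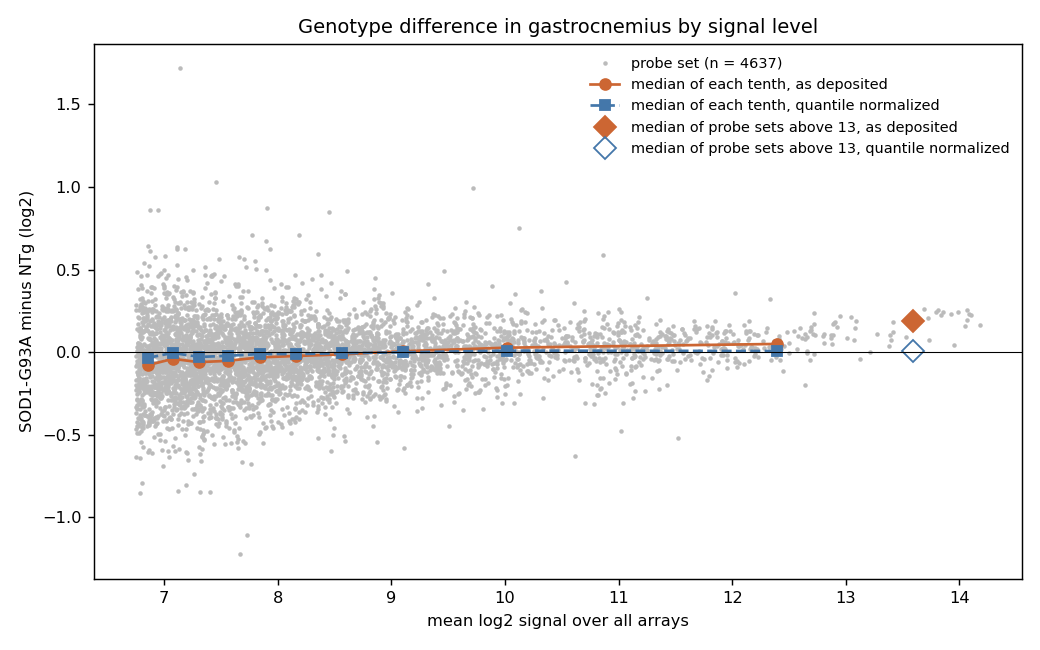
SOD1G93A minus NTg (vertical axis, log2) against the mean log2 signal over all arrays (horizontal axis) for the 4637 probe sets tested, with the median of each of 10 equal bins as deposited (orange) and after quantile normalization (blue), and diamonds for the 33 probe sets above 13. Medians as deposited go from -0.08 in the dimmest bin to 0.05 in the brightest, and the median above 13 goes from 0.19 to 0.01 after quantile normalization.

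Slow fibre genes showed no common direction in the 2 sets. Of 16 tested members 3 lay above 0 and 13 below, with a median of -0.10 and 0 whose groups did not overlap (1.55% of all genes higher and 1.35% lower). Without SOD1G93A replicate 1 the median was 0.05. With all arrays it was -0.49 in replicates 1 and 2 and 0.20 in replicates 3 and 4. Tnnc1, troponin C of slow fibres, was at 9.90 in SOD1G93A replicate 1 and at 11.02, 11.26 and 10.96 in replicates 2 to 4, against 11.43, 11.36, 11.11 and 10.71 in NTg. SOD1G93A replicate 1 was the lowest array of the 8, and the list's median level was 10.1 there against 10.58 to 11.2 on the other 7. Atp2a2, the slow calcium pump, was likewise lowest there, at 10.45. Without that array Tnnc1 differed by -0.03 in place of -0.37 and Atp2a2 by -0.04 in place of -0.28.

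Ccn2 encodes a matrix protein induced by stretch and TGF-beta. It was at 9.15, 8.58, 7.09 and 6.89 in SOD1G93A and 9.40, 9.29, 7.95 and 7.77 in NTg. Within each set the SOD1G93A arrays were the lower ones, and replicates 3 and 4 were far below replicates 1 and 2 in both genotypes. The difference was -0.67 (SE 0.15, limma's adjusted p = 0.501), against -1.68 between the sets.

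Among transcriptional regulators, Bcl6, a repressor with many targets in metabolism and immunity, was at 7.36, 6.79, 6.44 and 6.15 in SOD1G93A and 7.99, 7.55, 7.22 and 7.36 in NTg. The difference was -0.85 (SE 0.20, limma's adjusted p = 0.501), and SOD1G93A replicate 1 was the only array to reach into the NTg range. A second, dimmer probe set of Bcl6 that was not tested had the opposite sign, with means of 6.97 in SOD1G93A and 6.70 in NTg.

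Gadd45g, a stress-induced partner of growth arrest kinases, was at 8.24, 8.20, 5.03 and 5.96 in SOD1G93A and 8.74, 8.60, 7.61 and 7.37 in NTg. Its difference of -1.22 (SE 0.29, limma's adjusted p = 0.534) was made of -0.45 in the first set and -2.0 in the second. Tob2, an antiproliferative protein that also takes part in shortening the tails of mRNAs, was at 7.85, 7.85, 5.79 and 6.18 in SOD1G93A and 7.82, 8.13, 8.15 and 7.99 in NTg. Only SOD1G93A replicates 3 and 4 were low. The difference was -0.13 in the first set and -2.09 in the second, and the gap between sets had the smallest adjusted p of all probe sets, 0.281 in limma. The other 2 tested probe sets of Tob2 were at -0.20 and -0.66. For Gadd45g and Tob2 the values of SOD1G93A replicates 3 and 4 lay under 6.75, the level that the mean over all arrays had to exceed.

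Genes with lower values and no overlap between groups included Twf2, twinfilin 2, which caps actin filaments. It was at 7.62, 7.75, 8.04 and 7.95 in SOD1G93A and 8.32, 8.24, 8.25 and 8.73 in NTg, a difference of -0.55 (SE 0.14, limma's adjusted p = 0.617). The second probe set of Twf2 was at -0.28. Acat1, the mitochondrial thiolase of ketone body and isoleucine breakdown, was at 8.21, 8.06, 8.20 and 8.63 in SOD1G93A and 8.99, 8.67, 8.83 and 8.75 in NTg. It differed by -0.54 (SE 0.14) on this probe set and by -0.04 and -0.15 on the other 2.

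Brox, a protein with a Bro1 domain of the kind found in endosomal sorting, was at 6.55, 5.84, 6.15 and 6.07 in SOD1G93A and 6.86, 7.19, 6.69 and 7.03 in NTg, again with no overlap, at -0.79 (SE 0.23, limma's adjusted p = 0.62). All SOD1G93A values of Brox lay under 6.75, the level that the mean over all arrays had to exceed (6.80 for Brox). Csnk2a1, the catalytic subunit of casein kinase 2, was at -0.65 (SE 0.18) on 1 probe set and at 0.18 and 0.24 on the other 2, so its direction is not settled. Of these genes Bcl6, Gadd45g and Ccn2 had the smallest unadjusted p.

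**Figure D3:**
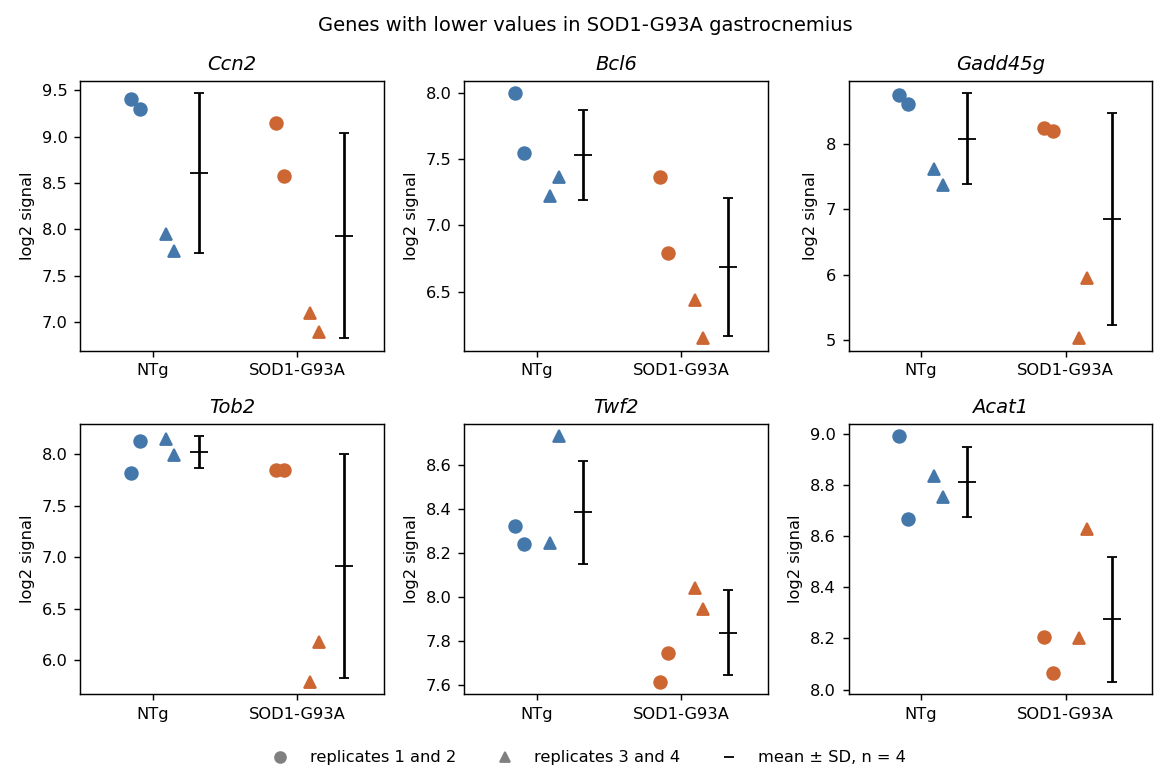
Log2 signal (vertical axes) of 6 genes with lower values on each gastrocnemius array, NTg in blue and SOD1G93A in orange, circles for replicates 1 and 2 and triangles for replicates 3 and 4, with the mean ± SD of 4 arrays. Ccn2 was lower in replicates 3 and 4 of both genotypes, Gadd45g and Tob2 were low in SOD1G93A replicates 3 and 4, and Twf2 and Acat1 had no overlap between groups.

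Genes with higher values and no overlap came from several compartments of the cell. Golga2, a scaffold of the Golgi, was at 7.87, 7.93, 8.06 and 7.75 in SOD1G93A and 7.14, 7.57, 7.39 and 7.20 in NTg, a difference of 0.58 (SE 0.15, limma's adjusted p = 0.617). Nsmf, a messenger between synapse and nucleus, was at 7.40, 7.53, 7.47 and 7.61 against 6.98, 6.82, 6.97 and 6.91, a difference of 0.58 (SE 0.15). Both sets gave nearly the same difference for Golga2 (0.55 and 0.61) and for Nsmf (0.56 and 0.60).

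Mrpl11, a protein of the large mitochondrial ribosomal subunit, was at 7.69, 8.16, 8.81 and 8.13 in SOD1G93A and 7.45, 7.58, 7.50 and 7.58 in NTg. The groups were apart, and the difference was 0.67 (SE 0.19, limma's adjusted p = 0.62). Its other 2 probe sets were at -0.01 and 0.07. Uqcc2, an assembly factor of respiratory complex III, was at 11.30, 11.33, 11.19 and 11.11 against 11.08, 11.10, 10.91 and 10.81, a small but even difference of 0.26 (SE 0.07). Ddx6, a helicase of mRNA storage granules, was at 0.56 (SE 0.18) and Eln, elastin, at 0.46 (SE 0.20), both without overlap.

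Genes induced by glucocorticoids lay mostly below 0. Of 16 tested members of the list 5 lay above 0 and 11 below, 4 of the latter at an unadjusted p under 0.05 (3.03% of all genes were lower at that p), and the median was -0.17 against -0.01 over all genes. Besides Bcl6, Sgk1, a kinase that controls ion transport, was at 9.32, 9.44, 9.09 and 8.52 in SOD1G93A and 9.35, 9.68, 9.84 and 9.27 in NTg. The difference was -0.45 (SE 0.18, limma's adjusted p = 0.789), and SOD1G93A replicates 3 and 4 were the lowest arrays. Without replicate 4 it was -0.27. Tsc22d3, the glucocorticoid-induced leucine zipper, was at -0.35 (SE 0.13), with 0.20 and -0.05 on its other probe sets. Cebpd, a transcription factor of stress and fat cell formation, was at -0.84 (SE 0.38), and at -0.39 without SOD1G93A replicate 3, where it read 4.50 against 6.53 to 7.94 on the other SOD1G93A arrays.

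The same list varied more with the set than with the genotype. The metallothioneins Mt1 and Mt2, metal-binding proteins that stress hormones induce, differed between sets by -1.29 and -1.73 and between genotypes by -0.15 (SE 0.19) and 0.27 (SE 0.23). Mt2 was at 9.44, 8.83, 7.50 and 6.89 in SOD1G93A and 9.13, 8.17, 7.28 and 6.99 in NTg. In both genotypes replicates 1 and 2 were the high arrays. Pfkfb3, which makes an activator of glycolysis, ran the other way, 1.49 higher in replicates 3 and 4. These set differences were chosen after the values were seen and have no test.

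Clock genes leaned to higher values. Of 12 tested members of the circadian list 10 lay above 0, with a median of 0.17, and 0.10 without SOD1G93A replicate 2. Nr1d1, the repressor REV-ERB alpha, was at 7.15, 7.16, 8.32 and 8.26 in SOD1G93A and 6.45, 6.96, 7.73 and 8.01 in NTg. Within each set the SOD1G93A arrays were the higher ones, at a difference of 0.43 (SE 0.16, limma's adjusted p = 0.771), and the sets differed by 1.15. Dbp, an activator whose level swings with the hour, was at 0.36 (SE 0.14), and Tef, its relative, at 0.23 (SE 0.11).

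Per1, a core clock repressor that glucocorticoids also induce, went against the list. It was at 7.32, 7.81, 5.81 and 3.13 in SOD1G93A and 7.10, 6.87, 6.62 and 6.88 in NTg, so that 1 array at 3.13 set most of its difference of -0.85 (SE 0.59). The sources used here do not give the hour at which the mice were killed, and its part in these values was not tested.

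Immediate early genes, which respond within minutes to activity or handling, separated the sets. Fos, a subunit of the AP-1 factor, was at 8.47, 8.46, 8.07 and 7.41 in SOD1G93A and 8.76, 8.28, 5.40 and 6.48 in NTg. The low arrays were NTg replicates 3 and 4. The difference was -0.05 in the first set and 1.80 in the second, 0.87 (SE 0.35) together, with limma's adjusted p = 0.789 for the genotype and 0.996 for the difference between sets. Egr1, an early zinc finger factor, followed the same arrays, with -0.07 and 1.49. Of 12 tested members 5 lay above 0 and 7 below, with a median of -0.04, and 0.11 without SOD1G93A replicate 1. Without NTg replicate 3 the difference was 0.47 for Fos and 0.36 for Egr1.

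Over all probe sets the differences of the 2 sets had little in common. Across probe sets, which are not independent, the difference in replicates 1 and 2 correlated with that in replicates 3 and 4 at 0.10, and 53.7% had the same sign. Fasn, Tkt, Scd1, Bcl6, Ccn2, Insig2 and Golga2 had the same sign in both sets. They were named for a small p in the fit over both sets, which favours a shared sign, so this is not a replication. For the difference between sets limma called 0 of 4637, while 175 had an unadjusted p under 0.05, and the smallest adjusted p was 0.281. That count rested on single arrays. Without SOD1G93A replicate 2 it was 11, among them the slow fibre genes Myh7, Myl2, Myl3, Tnnc1, Tnni1 and Tpm3, and SOD1G93A replicate 1 was then the only transgenic array of its set. It was 1 without SOD1G93A replicate 1 (Malat1) and 1 without replicate 3 (Per1).

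**Figure D4:**
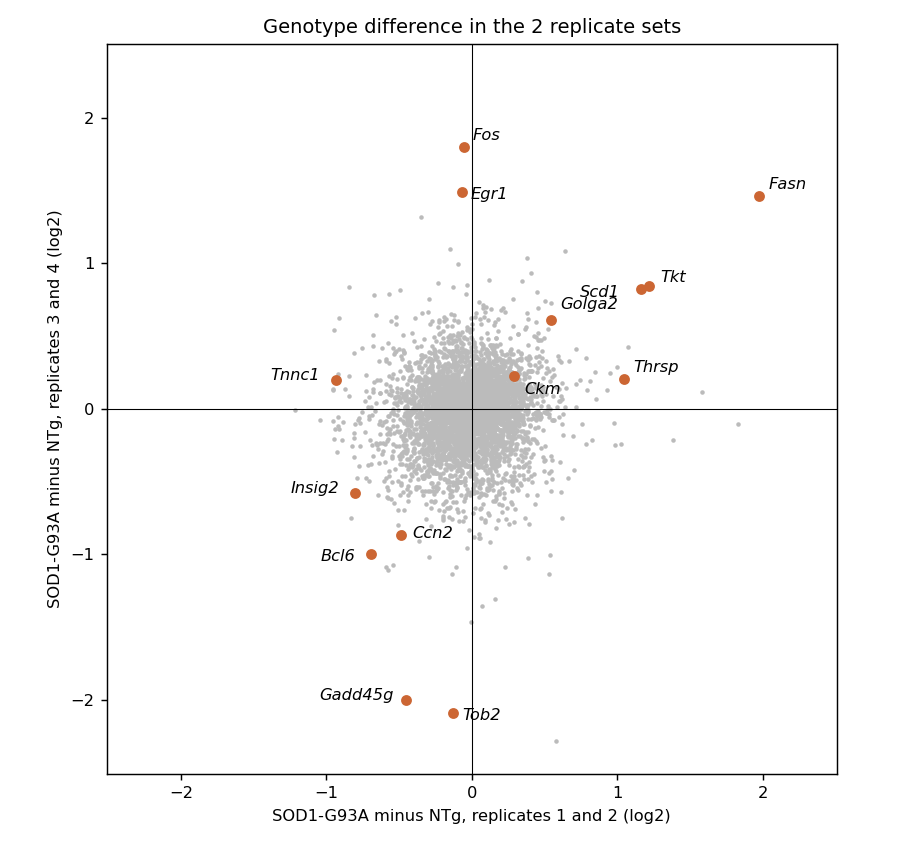
SOD1G93A minus NTg in replicates 3 and 4 (vertical axis, log2) against the same in replicates 1 and 2 (horizontal axis, log2), 1 point per probe set of 4637, named genes in orange. Fasn, Tkt and Scd1 stood high in both sets, while Tob2, Gadd45g, Fos and Egr1 stood apart mainly in replicates 3 and 4 and Tnnc1 in replicates 1 and 2.

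The transgene itself could not be read with certainty. The bright probe set of Sod1 gave 11.55, 11.31, 11.54 and 10.90 in SOD1G93A and 11.35, 11.01, 11.08 and 11.15 in NTg, with SOD1G93A replicate 4 the lowest of all. The difference was 0.18 (SE 0.13, limma's adjusted p = 0.864). A second probe set under the filter had 5.71, 5.79, 5.83 and 5.87 against 5.27, 5.68, 5.42 and 5.63, without overlap. Both are annotated to the mouse gene, and no source used here says whether they read the human transcript, so they do not check the genotype labels.

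Among antioxidant enzymes 14 of 22 tested members lay above 0, with a median of 0.11. Gpx4, which repairs oxidised membrane lipids, was at 0.26 (SE 0.12). Cat, the peroxisomal catalase, was at 7.52, 6.65, 7.91 and 7.52 in SOD1G93A and 7.87, 7.95, 8.21 and 7.72 in NTg, a difference of -0.54 (SE 0.21, limma's adjusted p = 0.789). The lowest array was SOD1G93A replicate 2, and without it the difference was -0.31. Replicate 3 lay within the NTg range.

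Of other genes linked to ALS, 15 were tested, 6 above 0 and 9 below, with a median of -0.07. On their brightest probe sets the RNA-binding proteins Tardbp (TDP-43) and Hnrnpa1 were below NTg on all arrays, at -0.38 (SE 0.21) and -0.30 (SE 0.15). Tardbp was at 7.05, 6.23, 7.04 and 6.84 in SOD1G93A and 7.12, 7.06, 7.37 and 7.11 in NTg, so the gap between the nearest arrays was narrow. Its limma adjusted p was 0.843. By the brightest probe set, groups did not overlap for these 2 of 15 genes, against 1.35% of all genes in that direction. Another tested probe set of Hnrnpa1 was at -0.34 and its groups overlapped. Dimmer probe sets of Tardbp that were not tested also overlapped, with means of 6.57 and 6.23 in SOD1G93A and 6.97 and 6.66 in NTg.

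The genes by which denervation is read were mostly absent from the deposited values, and most of those present were too dim to be tested. Of 36 members of the neuromuscular junction and denervation list 11 were in the table, 9 of those fell under the filter and 2 were tested. Prkar1a, a regulatory subunit of protein kinase A, was at -0.15 (SE 0.12), and Dlg1, a scaffold of membrane junctions, at -0.10. Atrophy and autophagy genes were better covered, with 23 tested, 13 above 0 and a median of 0.04. Usp14, a deubiquitinase of the proteasome, had the largest value at 0.71 (SE 0.28), which rested on 9.69 in SOD1G93A replicate 4 and 7.48 in NTg replicate 4. Without the latter it was 0.41. Dimmer probe sets of Usp14 that were not tested had the opposite sign, with means of 5.55 and 5.88 in SOD1G93A and 6.25 and 6.13 in NTg.

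Markers of nerve, immune cells and connective tissue had medians below 0. Mbp, a myelin protein of Schwann cells, was at 8.69, 8.92, 9.33 and 7.07 in SOD1G93A and 8.96, 8.69, 9.05 and 9.03 in NTg. Only SOD1G93A replicate 4 was low, and without it the difference of -0.43 became 0.11. For the 4 tested Schwann cell and myelin genes the median level was 8.23 on that array and 8.95 to 9.54 on the other 7, and the list's median went from -0.15 to 0.11 without it. Immune markers had 5 tested members with a median of -0.19, among them Lyz1, a lysozyme of myeloid cells, at -0.55 (SE 0.28). Lyz1 was at -0.93 without SOD1G93A replicate 3 and at -0.31 without replicate 4. The median of the immune markers ran from -0.33 without NTg replicate 3 to -0.07 without NTg replicate 2, and their median level ranged from 7.42 to 8.10 in SOD1G93A and 7.47 to 8.13 in NTg.

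Extracellular matrix genes had 33 tested members, 9 above 0 and 24 below, with a median of -0.12. Col6a3, a chain of the collagen VI network around fibres, was at 8.41, 8.30, 8.03 and 8.18 in SOD1G93A and 8.74, 8.61, 8.45 and 8.45 in NTg. The groups did not overlap, by a margin of less than the SE, at a difference of -0.33 (SE 0.11, limma's adjusted p = 0.771). Esam, an adhesion protein of endothelium, was at -0.46 (SE 0.18) without overlap, while the 8 endothelial genes tested split evenly around 0.

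The large housekeeping lists had small medians, beside -0.01 over all genes, but several had more members above 0 than the 48.1% of all genes. Respiratory complex I had 33 tested members with a median of 0.02, 23 of them above 0. Complexes II to V had 42 with 0.03, 27 above 0, and the citric acid cycle 27 with -0.03, 12 above 0. Mitochondrial ribosomal proteins had a median of -0.01 over 56 members, 27 above 0. Cytosolic ribosomal proteins had 0.06 over 38, 28 above 0, and proteasome subunits 0.04 over 33, 23 above 0. After quantile normalization the medians of complex I and complexes II to V turned to -0.0046 and -0.02. Those of the citric acid cycle and mitochondrial ribosome were then -0.03 and 0.0022, and those of the cytosolic ribosome and proteasome 0.03 and 0.03. Probe sets in the brightest of 10 equal bins had a median of 0.05, and 0.0073 after that normalization. Within these lists Ndufc1, a complex I subunit, was at 0.19 (SE 0.07) without overlap, and at 0.14 (SE 0.08) with overlap on another tested probe set. The ribosomal genes Rpl19 and Fau were at 0.22 (SE 0.08) and 0.25 (SE 0.08), both without overlap. Higher values without overlap were found for 2 of 33 complex I genes and 2 of 38 cytosolic ribosomal genes, against 1.55% of all genes. Fatty acid uptake and oxidation genes leaned lower, 18 of 24 below 0 with a median of -0.05, and glycolysis and glycogen genes higher, 14 of 21 above 0 with a median of 0.10. After quantile normalization these medians were -0.07 and 0.02. In replicates 1 and 2 they were -0.10 and 0.13, and in replicates 3 and 4 0.01 and 0.02.

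**Figure D5:**
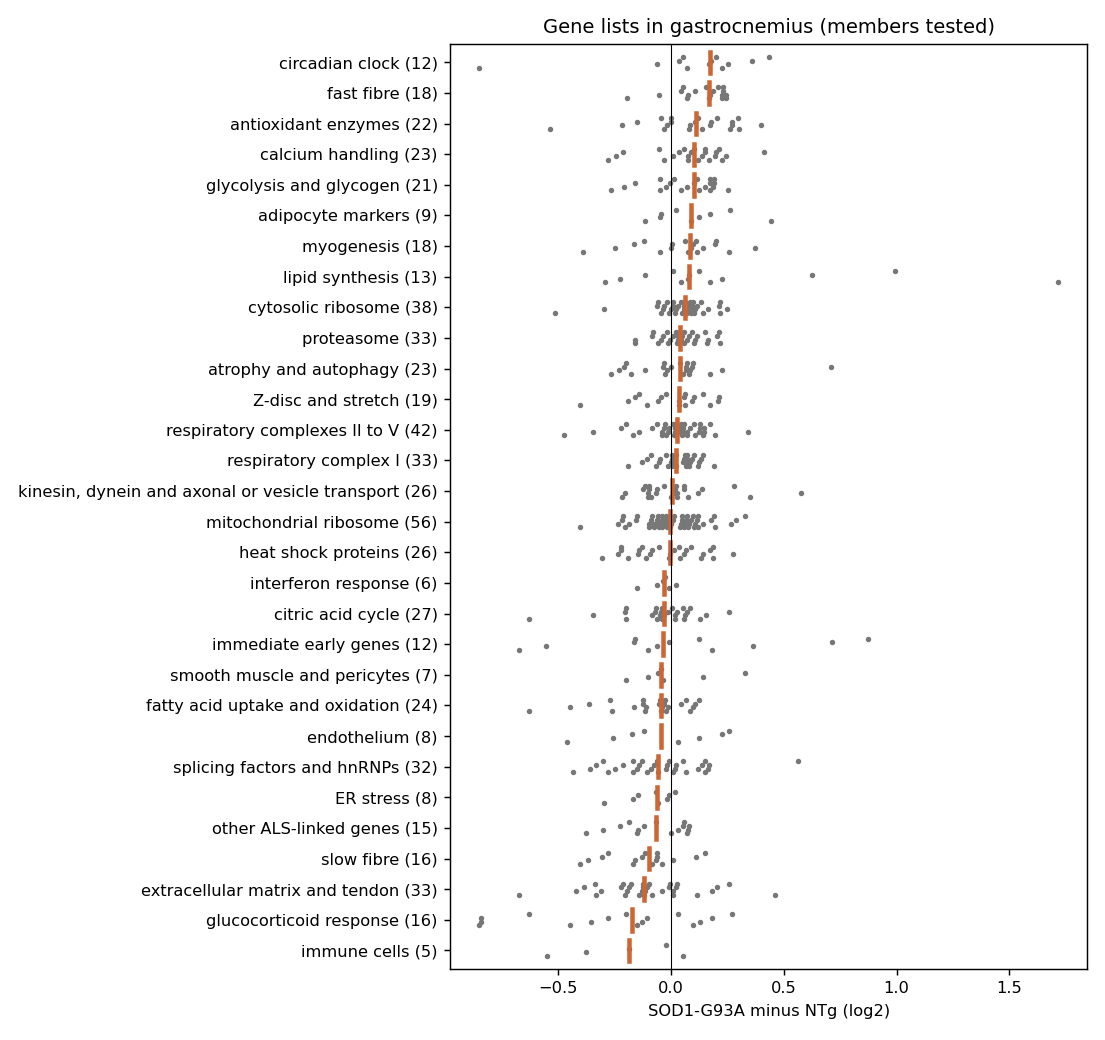
SOD1G93A minus NTg (horizontal axis, log2) for each tested gene of the lists with at least 5 tested members (grey points, brightest probe set of a gene), with the list's median in orange and the number tested in brackets. Medians lie between -0.19 and 0.17, and Fasn at 1.72 and Scd1 at 0.99 are the points farthest right.

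Triceps values, from a fit of its own 8 arrays, are given beside those of gastrocnemius. Fasn was at 0.88 (SE 0.18) in triceps and 1.72 in gastrocnemius, Scd1 at 0.87 (SE 0.21) and 0.99, Tkt at 0.66 (SE 0.28) and 1.03, and Bcl6 at -0.59 (SE 0.18) and -0.85. Golga2 was at -0.32 (SE 0.19) in triceps and 0.58 in gastrocnemius, and Mrpl11 at -0.47 (SE 0.24) and 0.67. The triceps fit called 0 of 4637 in limma (129 had an unadjusted p under 0.05) and 1, Egr1, without NTg triceps replicate 1.

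Whether the genotype effect differed between the muscles was tested over all 16 arrays with the mouse as a random block. Arrays of the same genotype and replicate number were assumed to come from the same mouse, which their titles do not state. Without the mouse in the fit 0 were called as well. limma called 0 of 4637, with 204 at an unadjusted p under 0.05, 70 of them above 0 and 134 below, and a smallest adjusted p of 0.958. Gastrocnemius minus triceps was 0.84 (SE 0.40) for Fasn, 0.89 (SE 0.23) for Golga2, 1.14 (SE 0.31) for Mrpl11 and -1.46 (SE 0.33) for Nras, a small GTPase, each at an adjusted p of 0.958. In earlier results of these data 3 triceps arrays stood apart (NTg replicates 1 and 2 and SOD1G93A replicate 2). Without them 0 were called and Scd1 was at 0.36 in triceps and Fasn at 0.79. The set of replicates 1 and 2 then held no NTg triceps array. With the set in the fit, these triceps differences came from the other replicate set alone, while the gastrocnemius differences came from both sets. Without NTg triceps replicate 1 alone, Myl3, a slow myosin light chain, and Atp1b1, a sodium pump subunit, passed.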

How the data were processed

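Per the labels' protocols, total RNA was isolated with Trizol and columns, and 4 ug went into the biotin-labelled cRNA. The authors deposited 1 log2 signal per probe set and array, and MAS5, without a version, is the tool given, per the submitters' processing notes. The base of the logarithm was read from the range of the values, -0.77 to 14.8. How the signals were scaled and how the 7729 probe sets were picked is not given in the sources used here, and a pseudocount of 16 planned for linear values was not needed. For arrays no depth applies, and their number limits the precision.

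Symbols came from the platform annotation, which gave 7053 probe sets a single symbol, 330 more than 1 and 346 no symbol. Probe sets with a single symbol are named here, and 7048 of them matched RefSeq genes of GRCm38.p6, which changed 0 symbols. Promoters matched by symbol for 91 of 125 genes that the rule for named genes gave.

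The filter kept probe sets whose mean over the 16 arrays exceeded the 40th percentile (6.75). limma 3.58.1 in R 4.3.3 fitted genotype and replicate set to the 8 gastrocnemius arrays (lmFit, eBayes with an intensity trend), with Benjamini-Hochberg adjustment over all 4637. The difference between sets was an interaction term. Triceps was fitted alike. The difference between muscles used all arrays with the mouse, assumed from genotype and replicate number, as a random block (duplicateCorrelation, 0.12). The fit was tested on simulated data. Gene lists are described by counts and medians over the brightest probe set per gene, with no test.

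Named genes are, per direction, the 10 of smallest unadjusted p, since none was called, the 5 per direction of smallest p for the muscle and set differences, the 3 members of smallest p of each of 33 lists, Sod1, and Ckm, Acta1, Tnnt3, Myh4 and Pvalb. The text names part of these. Genes outside the rule (Mt1, Mt2, Pfkfb3, Nsmf, Fabp4, Cebpd and those given only as members of a list) were picked with their values in view. The members and lists were chosen with earlier results of these data known. Alternatives changed the scaling, filter, block, shrinkage and arrays used.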

Additional observations from a re-analysis of the deposited data

Results flagged for a closer look

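For each probe set looked at, the 4 arrays of each genotype formed a group, 146 groups in all. Per1 and some other genes named in the text were not looked at. In 3 groups an array lay far from the other 3, where chance would mark about 1 in 20. Ankrd2, a stretch-responsive protein of slow fibres, was at 8.69 in SOD1G93A replicate 4, and the nearest of the others was at 9.31. Hnrnpk, an RNA-binding protein, was at 9.19 in NTg replicate 2, with the nearest at 8.95. Twf2 was at 8.73 in NTg replicate 4, with the nearest at 8.32, and its groups did not overlap with or without that array.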

How the results depend on the processing

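The count of 0 probe sets called in gastrocnemius held under 11 alternatives besides leaving out an array, among them quantile normalization, scaling to the 75th percentile, no filter, no intensity trend, array weights and the set left out of the fit. The count at an unadjusted p under 0.05 ranged from 171 with all 16 arrays in the fit to 437 with no filter, against 280. With single arrays left out the count called was 0 to 1 in gastrocnemius, 0 to 11 for the difference between sets, 0 to 2 for the difference between muscles and 0 to 1 in triceps. With the replicate number as a block, 0 were called and 251 had an unadjusted p under 0.05. Same-numbered arrays of the 2 genotypes correlated at 0.222, 0.0006, 0.0639 and 0.139, and 2 of 8 arrays correlated best with their own number, so the numbers were not taken to pair the mice.

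Alternative values were taken for 72 genes, most of them named in the text. They include some that the text does not name, among them Pgam2, Pygm, Hspa8 and Txnip. They leave out Per1, Me1, Gpam, Srebf1, Acss2 and Dlg1, whose values under the alternatives are not given here. For the 72 genes, 1348 of 1355 alternative values kept direction and side of the threshold. The exceptions were Scd1, called without NTg replicate 3, Acta1 at -0.0057 and Myh4 at -0.15 after quantile normalization, and, with single arrays left out, Myh4 at -0.0174 (SOD1G93A replicate 1) and -0.00669 (NTg replicate 4) over a range of -0.0174 to 0.11, Fabp4 at -0.0378 to 0.29 (lowest without SOD1G93A replicate 1) and Mbp at -0.80 to 0.11 (highest without SOD1G93A replicate 4). The cause was not tested. Of 31 list medians (lists with at least 3 genes tested) 15 lay above 0, and 14 to 19 under the alternatives.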
